A study of Mus musculus with 36 samples.

Results

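The diet response described here is that of female NZO/HlLtJ mice, an inbred strain that becomes obese, in the hypothalamus. It rests on 6 of the 36 libraries of the series, those titled NZO/HlLtJ with the suffix for females, with 3 libraries from a high-fat, high-sugar (HFHS) diet and 3 from a control diet. The labels give the diets as 44% and 10% fat, each with fiber. The diets began when the mice were 6 weeks old, and the hypothalamus was collected at 15 weeks. Both groups are labelled wild type with no other treatment, so diet is the labelled difference between them. The series also holds males of the strain and both sexes of C57BL/6J, the reference strain, and of CAST/EiJ, a wild-derived strain, with 3 libraries in each of 12 groups. RNA with poly(A) tails was sequenced from bulk tissue, and 20053 of the 24265 genes in the deposited table passed the expression filter. Levels are given as CPM, a gene's counts for each M of the library's scaled total. The labels do not say that the libraries of a group came from separate animals, so p-values measure the spread between libraries. That spread was estimated within the 12 groups over all 36 libraries, not over the 6 alone.

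The hypothalamus holds the neurons that sense leptin, insulin and nutrients and that set food intake and energy use. Astrocytes and microglia, its supporting and immune cells, are known to become reactive when rodents eat a fat-rich diet, and reactive astrocytes make intermediate filaments, protease inhibitors and complement proteins. The heat shock response is a separate program, in which the factor HSF1 binds repeated GAA and TTC blocks in promoters and switches on chaperones, the proteins that fold other proteins.

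Hypothalamic transcripts were present in each of the 6 libraries, with Pmch, the melanin-concentrating hormone precursor of the lateral hypothalamus, at 370 to 494 CPM. Library totals ran from 25.3 to 47.3 M, and the coefficient of variation between replicates was 12.1% over the series. Several libraries stood apart. HFHS female 3 held Y-linked transcripts, with Ddx3y at 2.58 CPM and Eif2s3y at 0.943 CPM, while both were at 0 in the other 5 libraries. Its level of Xist, the RNA of the inactive X chromosome, was 1230 CPM, and the summed level of 4 Y-linked genes was 4.47 CPM against at most 0.0814 CPM in the others. HFHS females 1 and 3 held hindbrain and cerebellar transcripts, such as Slc6a5 at 9.57 and 11.6 CPM, against at most 0.325 CPM in the other 4 libraries. Those 2 libraries also had Ttr, the choroid plexus transporter of thyroid hormone, at 48.5 and 42.0 CPM, against 0.251 CPM in HFHS female 2 and 0.394, 7.46 and 0.332 CPM in the controls. Control female 2 was rich in thalamic transcripts, with 468 CPM for the summed list of 8 genes against 259 to 305 CPM elsewhere. Control female 3 carries a library number apart from those of the other 5, whose meaning no label states. The part these differences play in the results was not tested.

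**Figure D1:**
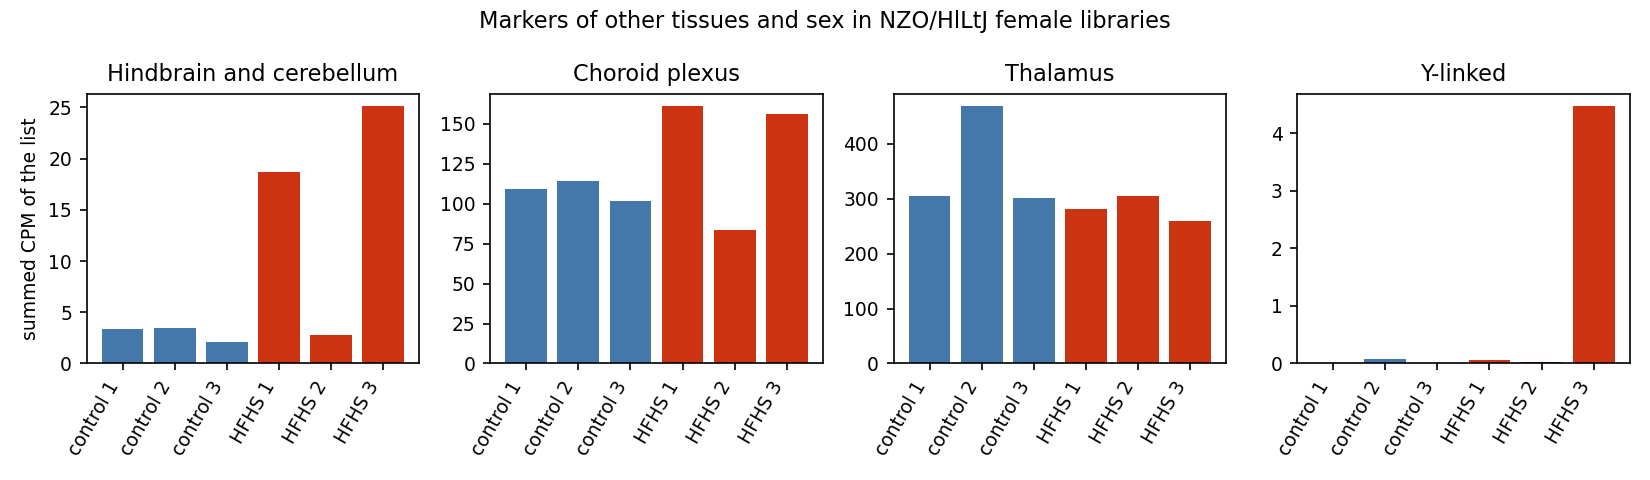
Summed CPM of 4 marker lists in the 6 NZO/HlLtJ female libraries, with controls in blue and HFHS in red. The hindbrain and cerebellum list reached 18.7 and 25.1 CPM in HFHS females 1 and 3 against 2.08 to 3.5 CPM in the other 4, and the Y-linked list reached 4.47 CPM in HFHS female 3.

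Among 20053 genes, 4 rose on HFHS and 0 fell (adjusted p under 0.05, edgeR quasi-likelihood test with Benjamini-Hochberg adjustment), which is 0.0199% and 0% of the genes tested. At an unadjusted p under 0.05 there were 805 higher and 649 lower genes. Other fits also called lower genes, with 6 higher and 9 lower on the 6 libraries alone, 37 and 15 on NZO/HlLtJ libraries alone and 34 and 11 by DESeq2. The genes that rose were the protease inhibitor gene Serpina3n, the complement gene C4b, the membrane protein gene Stom and the long non-coding RNA 2900052N01Rik. The last is outside the naming rule and was chosen after its values were seen. The median log2 change over all genes was 0.003.

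Serpina3n (GRCm38 chr12:104406729-104414329) encodes a secreted inhibitor of serine proteases and is a known mark of reactive astrocytes. Its level was 59.3, 57.9 and 79.4 CPM in the control females and 191, 174 and 146 CPM in the HFHS females. All 3 HFHS libraries lay above all controls, and the lowest of them, HFHS female 3, was still well clear of control female 3, the highest control. The change was 2.6-fold, or 1.38 ± 0.15 on the log2 scale (SE, adjusted p = 1.1e-05). It kept passing the test under each of 19 other settings, with log2 changes from 1.20 to 1.54, and the gene belongs to a family of close copies among which the assignment of reads is uncertain.

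C4b (chr17:34728380-34743882) encodes complement component C4, which is cut to deposit on targets early in the complement cascade. Control females had 233, 250 and 320 CPM, and HFHS females had 474, 470 and 456 CPM. The HFHS libraries were close together and apart from the controls, of which control female 3 was the highest. The log2 change was 0.80 ± 0.13 (adjusted p = 0.00571). The call was lost without control female 1 (adjusted p = 0.103), without control female 2 (0.142), on female libraries alone (0.0692), with HFHS female 2 as the single HFHS library (0.687) and without control female 2 and HFHS female 3 together (0.382), over a range from 4.54e-06 to 0.687 among 19 settings. Its near-identical neighbour C4a was at 8.71, 6.7 and 8.76 CPM in controls and 6.1, 7.34 and 6.35 CPM on HFHS, and its log2 change was −0.28 (adjusted p = 0.829, not passing).

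Stom (chr2:35313986-35336976) encodes stomatin, a membrane protein that modulates ion channels. Its level was 10.2, 12.8 and 13.7 CPM in controls and 21.6, 19.2 and 21.3 CPM on HFHS. The groups did not overlap, and the log2 change was 0.75 ± 0.11 (adjusted p = 0.00173). It did not pass in fits on the 6 libraries (adjusted p = 0.0762), on female libraries alone (0.0866), with HFHS female 2 as the single HFHS library (0.831) or without control female 2 and HFHS female 3 (0.0868), over a range from 5.78e-07 to 0.831 among 19 settings. The long non-coding RNA 2900052N01Rik (chr9:46913493-46927366) was at 14.2, 12.2 and 19.4 CPM in controls and 43.2, 30.3 and 34.1 CPM on HFHS. Its log2 change of 1.22 ± 0.21 (adjusted p = 0.0083) was no longer a call without control female 1 (adjusted p = 0.103), control female 2 (0.224) or HFHS female 1 (0.162). It was also lost on the 6 libraries (0.0593) or female libraries alone (0.215), with HFHS female 2 as the single HFHS library (1) and without control female 2 and HFHS female 3 (0.578), over a range from 3.87e-06 to 1 among 19 settings.

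**Figure D2:**
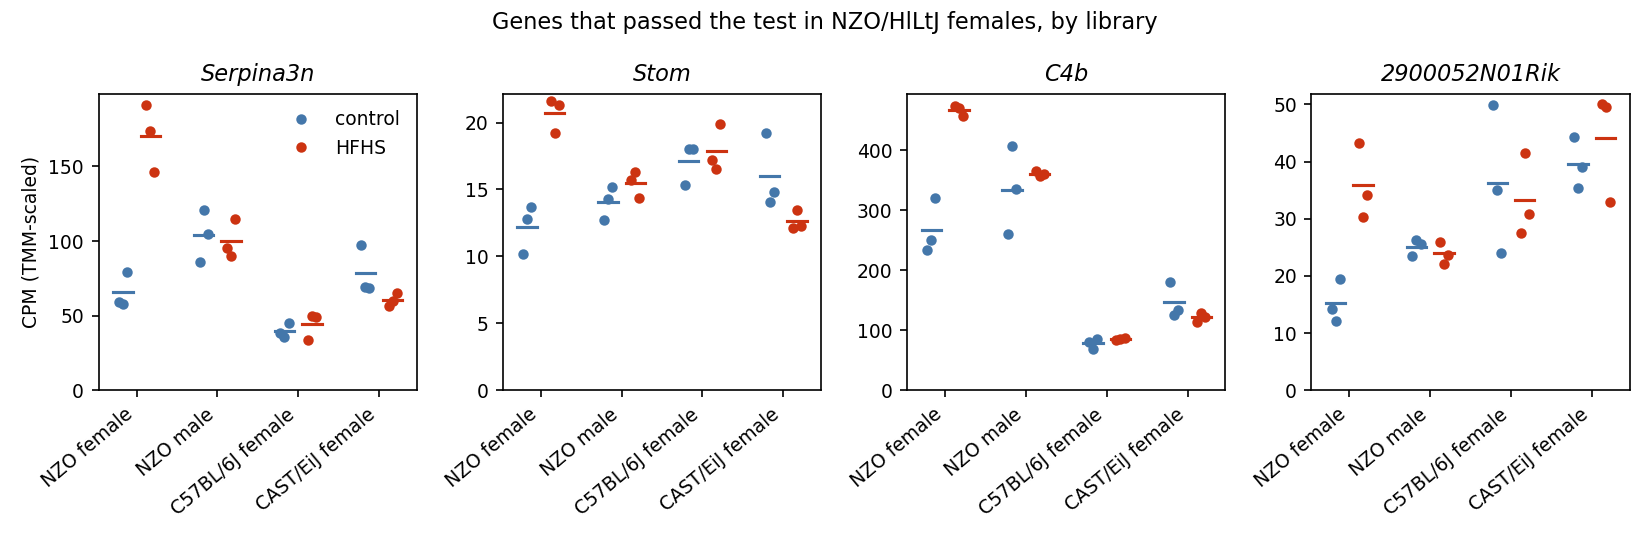
CPM of the 4 genes that passed the test in NZO/HlLtJ females, with 1 point for each library, a line for the group mean of 3 libraries, controls in blue and HFHS in red, beside NZO/HlLtJ males and females of the other strains. In NZO/HlLtJ females the HFHS points lie above all control points for each gene, for example 146 to 191 CPM against 57.9 to 79.4 CPM for Serpina3n.

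The next genes by p did not pass. Adamtsl1, which encodes a secreted matrix protein, was at 10.8, 13 and 11.9 CPM in controls and 20.7, 19.2 and 21.5 CPM on HFHS (log2 change 0.78 ± 0.15, adjusted p = 0.0577). Its groups did not overlap. Btf3l4 had a log2 change of 0.38 ± 0.08 (adjusted p = 0.105), from 48.9 to 58.2 CPM in controls to 62.8 to 72.2 CPM on HFHS. Among lower genes, the smallest p belonged to Sema5b, an axon guidance gene, with 15.5, 19.8 and 13.4 CPM in controls and 11.2, 11.9 and 11.6 CPM on HFHS (log2 change −0.49, adjusted p = 0.148). The synaptic adhesion gene Elfn1 (−0.43, adjusted p = 0.148), the actin nucleator gene Cobl (−0.26, adjusted p = 0.169) and Vstm2b (−0.34, adjusted p = 0.179) came next. For these 4 genes the lowest control was above the highest HFHS library.

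Genes of reactive gliosis were higher on HFHS in most of the list, though Serpina3n was the member that passed the test. Of 20 members tested, 12 had all 3 HFHS libraries above all controls and 1 had them below, while 7.32% of all genes tested lay above and 6.82% below in this way. The median log2 change was 0.57. Without control female 3, 14 members lay above, when 14.2% of all genes did. With HFHS female 2 as the single HFHS library, 13 did so, when 23.7% of all genes did.

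Gfap, the intermediate filament gene of astrocytes, was at 525, 551 and 724 CPM in controls and 1090, 1130 and 1200 CPM on HFHS (log2 change 0.92 ± 0.26, adjusted p = 0.303). Every HFHS library was above every control, with control female 3 nearest to them. C3, the central complement protein gene, was at 6.9, 7.27 and 11 CPM in controls and 22.3, 22.6 and 22.5 CPM on HFHS (1.40 ± 0.33, adjusted p = 0.163). The HFHS values were almost equal to each other. Ggta1, which encodes a galactosyltransferase, was at 7.81, 10.4 and 9.8 CPM in controls and 15.7, 14.3 and 14.3 CPM on HFHS (0.65 ± 0.14, adjusted p = 0.148). The asparaginase gene Aspg had 6.9, 8.03 and 13.8 CPM in controls and 18.2, 17.2 and 16.4 CPM on HFHS, and Cd44, the hyaluronan receptor gene, had 15.1, 19.4 and 22.8 CPM and 31.9, 29.4 and 36.2 CPM. Neither passed (log2 changes 0.84 and 0.76, adjusted p = 0.303 and 0.386). Osmr, the oncostatin M receptor gene, had a log2 change of 0.68 (adjusted p = 0.447) and also did not overlap between groups. Not all of the list followed, since Vim, another intermediate filament gene, had 48.3, 57.6 and 72.8 CPM in controls and 70.2, 66.6 and 74.6 CPM on HFHS. The exception below the controls was Hspb1, a small heat shock protein gene that is listed with both programs.

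Control female 3 was the control nearest to the HFHS group over the gliosis list, with a mean level of 3.69 on the log2(CPM + 0.5) scale where controls 1 and 2 had 3.18 and 3.38 and the HFHS libraries ranged from 3.86 to 4.02. Of 12 general astrocyte markers 2 lay above and 2 below, against 7.32% and 6.82% of all genes, with a median log2 change of 0.09. The difference of these markers from the gliosis list was not tested. Their summed level was 5330, 5620 and 5340 CPM in controls and 6200, 5700 and 6320 CPM on HFHS, so the sums did not overlap. Without HFHS female 3, 5 of 12 lay above, when 10.8% of all genes did, and without control female 2 as well 7 did, against 16.0% of all genes. Slc1a2, the main glutamate transporter gene, was at 1940, 2030 and 1710 CPM in controls and 2370, 1930 and 2570 CPM on HFHS, and Aldh1l1 at 65.2 to 68.7 CPM and 64.6 to 77.7 CPM. Bulk tissue cannot tell fewer or more cells of a type from less or more RNA in each cell. Of the reactive gliosis genes, 19 had a RefSeq promoter window, from 250 bases before to 50 bases after the start. A STAT site of the letters TTCNNNGAA, searched on both strands, was found for 3 of the 19 genes, Gfap, Psmb8 and Steap4. It was in 8.3% of all 32851 windows. A gene was counted if any of its windows held the site, so the 2 measures differ.

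Complement genes, with C4b and C3 counted among them, were higher in part. Of 18 tested, 7 did not overlap on the higher side and 0 on the lower side, against 7.32% and 6.82% of all genes, with a median log2 change of 0.26 and C4b as the member that passed. Serping1, the inhibitor of the initiating protease C1, was at 7.69, 12.9 and 18.8 CPM in controls and 25, 19.8 and 26.2 CPM on HFHS (log2 change 0.83, adjusted p = 0.51). Clu, a chaperone that also blocks the terminal complex, was at 609, 645 and 716 CPM and 743, 808 and 732 CPM (0.21, adjusted p = 0.646). The C1 protease genes C1s1 and C1ra were higher without overlap at 3 CPM or less. The C1q genes, made by microglia, overlapped, and C1qa was at 17.1, 21.3 and 21.7 CPM in controls and 21.7, 21 and 19.8 CPM on HFHS (0.05, adjusted p = 0.97).

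Of the antigen presentation genes 0 passed the test. In the class I list, 7 of 16 did not overlap on the higher side and 0 on the lower side (median log2 change 0.31), against 7.32% and 6.82% of all genes. The higher count was 11 without control female 2, when 11.4% of all genes lay above. H2-D1, a class I heavy chain gene with close copies, was at 46.3, 53.4 and 53.8 CPM in controls and 63.3, 64 and 66.6 CPM on HFHS (adjusted p = 0.562), and the peptide transporter gene Tap2 at 15.5, 18.6 and 18.9 CPM and 21.4, 22.3 and 21.6 CPM. In the class II list 5 of 10 did not overlap on the higher side, against the same 7.32% (median 0.67). Its largest shift among them was H2-Aa, at 0.828, 2.79 and 3.76 CPM in controls and 4.8, 4.32 and 8.67 CPM on HFHS (log2 change 1.22, adjusted p = 0.653). Control female 1 was the lowest for H2-Aa, and the same library had the lowest summed level of fibroblast and meningeal markers, 231 CPM against 377 to 573 CPM in the other 5. Among 25 interferon-induced genes, 5 were higher without overlap and 0 lower, against 7.32% and 6.82% of all genes. Without control female 3 the higher count was 13 of 25, when 14.2% of all genes lay above. With HFHS female 2 as the single HFHS library, 6 were higher and 4 lower, when 23.7% and 22.8% of all genes were. Ifit2 had the smallest p of the list, with 16.2, 21.5 and 24 CPM in controls and 29, 27.6 and 32.7 CPM on HFHS (0.53, adjusted p = 0.398).

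Markers of other cell types moved beside these lists, and their part in the results was not tested. Of 14 microglial genes, 5 did not overlap on the higher side, against 7.32% of all genes (median log2 change 0.13), among them P2ry12, the purine receptor of resting microglia, at 18.9, 18.8 and 16.7 CPM in controls and 24, 20.3 and 29.1 CPM on HFHS. The higher count was 11 of 14 without HFHS female 3, when 10.8% of all genes lay above. The summed level of this list was 337 to 368 CPM in controls and 396 to 424 CPM on HFHS. For 14 oligodendrocyte genes, 8 did not overlap on the higher side, against 7.32% of all genes (median 0.25). Among them was the claudin gene Cldn11, at 78.5, 68.8 and 81.6 CPM in controls and 99.3, 86.2 and 114 CPM on HFHS. HFHS females 1 and 3, the libraries with hindbrain transcripts, were the highest for Cldn11. Of 10 genes of oligodendrocyte precursors, 5 were lower without overlap, against 6.82% of all genes, for example Gpr17, a receptor of cells about to mature, at 76.9, 73.5 and 90.7 CPM and 58.5, 63.3 and 65.3 CPM (log2 change −0.37, adjusted p = 0.348). Red cell markers were lower in 7 of 8 members by their log2 change (median −0.87), 3 of them without overlap, against 6.82% of all genes. With control female 2 left out, 7 red cell markers were lower without overlap, when 10.3% of all genes were. Their summed level was 1400, 1120 and 1760 CPM in controls and 1180, 611 and 752 CPM on HFHS, with HFHS female 1 inside the control range. Of 7 ependymal markers 4 were lower without overlap, against 6.82% of all genes (median −0.19). Fibroblast and meningeal markers had a positive log2 change in 12 of 12 members (median 0.44). Of these, 1 was higher without overlap, against 7.32% of all genes, and 6 without control female 3, when 14.2% of all genes were. No member of these marker lists passed the test.

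Heat shock chaperone genes were lower on HFHS across nearly the whole list, and 0 passed the test. Of 21 members, 19 had all 3 HFHS libraries below all controls, where 6.82% of all genes did, and 20 had a negative log2 change. The median was −0.27. The count was 19 without HFHS female 3, when 9.7% of all genes lay below, and 19 without control female 3, when 12.6% did. It was 20 with HFHS female 2 as the single HFHS library, when 22.8% of all genes lay below. The exceptions to the separation were Hspe1 and Bag3, and Bag3, a co-chaperone gene, had a log2 change of 0.09.

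Promoter windows are shown for 4 lower members described next, chosen because they carry matches to the HSF1 recognition blocks. Dnajb1, a lower member also described next, had 0 matches in each of its 2 windows. The windows are RefSeq sequences on GRCm38.p6, read 5′ to 3′ on the gene's strand. Capitals mark the heat shock core GAANNTTC and its inverted form TTCNNGAA, each of which reads alike on both strands. The window of Hspa1b is chr17:34959189-34959488 on the minus strand, that of Hspb1 is chr5:135887669-135887968 on the plus strand, that of Fkbp4 is chr6:128438607-128438906 on the minus strand and that of Hsph1 is chr5:149636287-149636586 on the minus strand.
Hspa1b: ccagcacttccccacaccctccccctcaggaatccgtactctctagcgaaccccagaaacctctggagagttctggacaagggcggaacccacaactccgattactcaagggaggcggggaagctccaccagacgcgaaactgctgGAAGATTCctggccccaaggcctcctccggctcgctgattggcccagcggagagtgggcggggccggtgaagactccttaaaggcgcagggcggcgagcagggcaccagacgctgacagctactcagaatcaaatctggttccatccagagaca
Hspb1: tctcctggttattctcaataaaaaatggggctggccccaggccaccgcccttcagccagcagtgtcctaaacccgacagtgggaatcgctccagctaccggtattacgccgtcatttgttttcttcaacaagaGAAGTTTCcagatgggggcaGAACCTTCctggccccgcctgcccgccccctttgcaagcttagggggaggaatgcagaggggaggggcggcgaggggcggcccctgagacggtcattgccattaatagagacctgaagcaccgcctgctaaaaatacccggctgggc
Fkbp4: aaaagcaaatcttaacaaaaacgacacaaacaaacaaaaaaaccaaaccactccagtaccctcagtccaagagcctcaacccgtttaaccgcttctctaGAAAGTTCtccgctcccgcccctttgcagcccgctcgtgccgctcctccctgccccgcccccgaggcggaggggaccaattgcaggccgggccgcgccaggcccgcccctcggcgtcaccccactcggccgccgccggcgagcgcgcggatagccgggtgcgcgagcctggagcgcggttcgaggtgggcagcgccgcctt
Hsph1: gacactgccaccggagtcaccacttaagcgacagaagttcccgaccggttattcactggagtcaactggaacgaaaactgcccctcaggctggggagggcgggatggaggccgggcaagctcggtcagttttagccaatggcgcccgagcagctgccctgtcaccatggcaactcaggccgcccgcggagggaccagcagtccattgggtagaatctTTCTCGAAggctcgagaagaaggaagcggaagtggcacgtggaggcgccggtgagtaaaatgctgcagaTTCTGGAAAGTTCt
In Hspa1b the match begins 104 bases before the gene start, in Fkbp4 151 bases before it, and in Hspb1 117 and 97 bases before it. Hsph1 has 3 matches, of which 1 begins 33 bases before the start and the others lie after it and overlap each other. Of the 21 chaperone genes, 16 had a window, and GAANNTTC was found for 10 of these 16 genes and in 7.86% of 32851 windows. TTCNNGAA was found for 5 of the 16 genes and in 8.52% of all windows. A gene was counted if any of its windows held the match, so counts of genes and shares of windows are unlike measures. The windows of Hspa1a and Hspa1b differ at 4 of 300 positions, and reads of these near-identical genes cannot be firmly assigned to either copy.

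Hspa1b, an inducible HSP70 gene, was at 15, 19 and 28.9 CPM in controls and 5.73, 3.84 and 4.83 CPM on HFHS (log2 change −2.14 ± 0.53, adjusted p = 0.183). Hspa1a was at 30, 32.1 and 41.4 CPM in controls and 14.3, 13.5 and 14.6 CPM on HFHS (−1.29 ± 0.34, adjusted p = 0.236). In both genes the controls spread widely, with control female 3 the highest, while the HFHS libraries were close together. Hsph1, which exchanges nucleotide on HSP70, was at 437, 443 and 485 CPM in controls and 314, 310 and 308 CPM on HFHS (−0.55 ± 0.14, adjusted p = 0.201). Dnajb1, the HSP40 partner of HSP70, was at 92.1, 91.7 and 83.1 CPM and 50.1, 55.8 and 47.3 CPM (−0.80 ± 0.21, adjusted p = 0.262). These 2 genes had narrow groups set far apart. Hspb1 was at 9.46, 8.16 and 15.6 CPM in controls and 5.21, 6.04 and 5.9 CPM on HFHS, and Fkbp4, a co-chaperone of steroid receptors, was at 157, 168 and 185 CPM and 135, 141 and 130 CPM. The abundant constitutive chaperones shared the direction, with Hspa8 at 1950, 2090 and 2390 CPM and 1780, 1720 and 1610 CPM (−0.33, adjusted p = 0.493). Fitted on the 6 libraries alone, Hspa1b passed (adjusted p = 0.0146), over a range from 0.0146 to 1 among 19 settings. In that fit Hsph1 (0.0146), Hspa1a (0.00994) and Dnajb1 (0.00994) passed as well.

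Of 22 genes of the unfolded protein response, which include chaperones of the endoplasmic reticulum, 0 passed the test. On the lower side 11 did not overlap and on the higher side 0, against 6.82% and 7.32% of all genes, with a median log2 change of −0.18. Manf, a secreted stress factor of the endoplasmic reticulum, was at 56, 53.8 and 71 CPM in controls and 45.3, 44 and 45.5 CPM on HFHS (log2 change −0.43, adjusted p = 0.397). Hspa5, the reticulum's HSP70, was at 491, 479 and 687 CPM and 461, 453 and 421 CPM (−0.31, adjusted p = 0.615). Control female 3 was the highest for both. The related integrated stress response list had 1 of 15 higher and 1 lower without overlap, 6.67% each. It had 4 higher without control female 3, when 14.2% of all genes lay above.

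**Figure D3:**
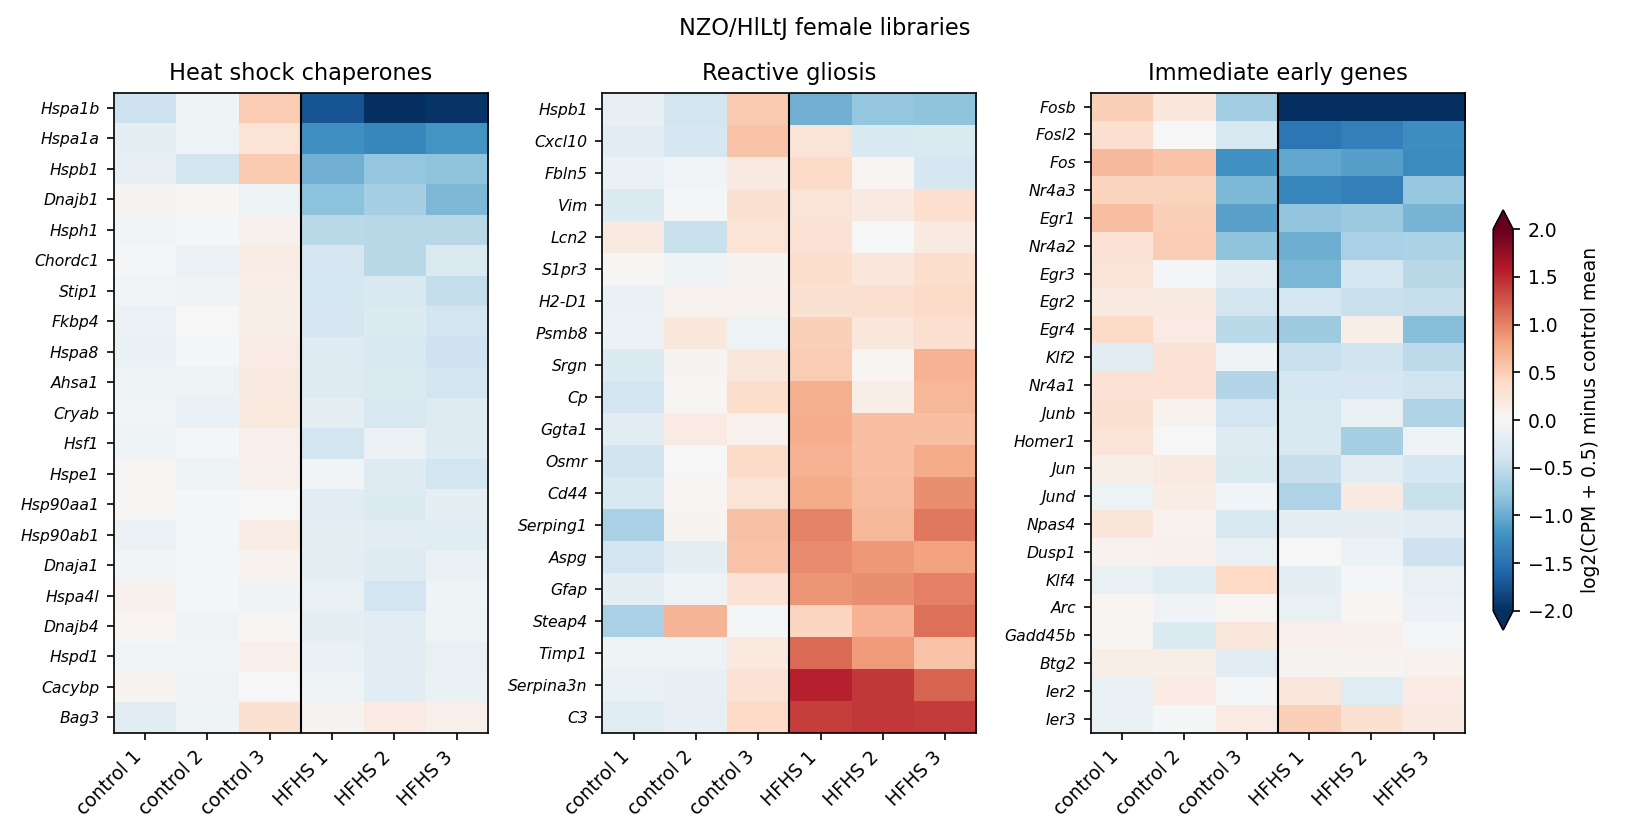
Log2(CPM + 0.5) minus the mean of the 3 controls for members of 3 gene lists in the 6 NZO/HlLtJ female libraries, with lower values in blue, higher in red and colour saturated at the ends of the scale. Of the heat shock chaperones 19 of 21 are below all controls in each HFHS library, of the reactive gliosis genes 12 of 20 are above, and control female 3 is low among the immediate early genes.

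Of the immediate early genes, which neurons switch on within minutes of activity, 0 passed the test. Of 23 members, 4 were lower without overlap and 1 higher, against 6.82% and 7.32% of all genes, with a median log2 change of −0.37. Fosb was at 15.7, 13 and 6.7 CPM in controls and 1.82, 2.18 and 2.04 CPM on HFHS (−2.53 ± 0.64, adjusted p = 0.206). Fos was at 49.6, 47.1 and 13.4 CPM in controls and 15.1, 14.4 and 12.8 CPM on HFHS, and Egr1 at 70.2, 64.5 and 21.4 CPM and 26.4, 27.3 and 23.8 CPM. Control female 3 was thus at the HFHS level for Fos and Egr1 and between the groups for Fosb. Without that library, left out after its values were seen, 17 of 23 members were lower without overlap, when 12.6% of all genes were.

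Of the genes induced by glucocorticoids, the adrenal stress hormones, 0 passed the test. Of 19 members, 7 were lower without overlap and 1 higher, against 6.82% and 7.32% of all genes (median log2 change −0.31). The lower count was 11 without control female 3, when 12.6% of all genes lay below. Tsc22d3, a direct target of the glucocorticoid receptor, was at 71.9, 72.3 and 72.9 CPM in controls and 43.9, 47.7 and 48.8 CPM on HFHS (−0.63 ± 0.24, adjusted p = 0.54). Each group was narrow, and control female 3 matched the other controls. Sgk1, a kinase gene of the same program, was at 104, 93 and 50.9 CPM and 47.8, 37.1 and 48.6 CPM (−0.89, adjusted p = 0.733), with control female 3 close to the HFHS libraries. Fkbp5, another target, overlapped at 30.4, 30.9 and 44 CPM in controls and 29.8, 30.2 and 30.8 CPM on HFHS. The metallothionein gene Mt2 was the member on the higher side, at 39.4, 46.3 and 56.4 CPM in controls and 57.2, 67.8 and 58.4 CPM on HFHS.

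Appetite genes gave 0 calls, and individual members separated in both directions. Of 13 appetite-stimulating genes, 1 was higher and 3 lower without overlap, with a median log2 change of −0.06. Of 20 appetite-suppressing genes, 5 were higher and 1 lower, with a median of 0.04. Among all genes tested, 7.32% lay above and 6.82% below. Npy, the hunger-promoting peptide gene of the arcuate nucleus, was at 10.1, 8.06 and 16 CPM in controls and 24.8, 23.4 and 16.8 CPM on HFHS (log2 change 0.92 ± 0.32, adjusted p = 0.486). HFHS female 3 was barely above control female 3. Agrp, made by the same neurons, was at 2.01, 2.17 and 4.13 CPM and 5.38, 5.89 and 2.8 CPM, with HFHS female 3 inside the control range. Hcrt, the orexin precursor gene of the lateral hypothalamus, was lower without overlap at 63.4, 47.7 and 45.4 CPM and 34.9, 30.5 and 25.7 CPM (−0.78, adjusted p = 0.699). Mc4r, the melanocortin receptor through which feeding is restrained, was at 4.1, 4.53 and 5.25 CPM in controls and 2.75, 2.85 and 2.49 CPM on HFHS (−0.78 ± 0.20, adjusted p = 0.203). Its groups were narrow and apart. Cartpt, an anorexigenic peptide gene, was at 58.2, 63.2 and 65.8 CPM and 73.8, 81.4 and 73.5 CPM (0.29, adjusted p = 0.723). Pomc, the melanocortin precursor gene, overlapped at 44.1 to 54.4 CPM and 45.6 to 52.3 CPM.

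Leptin and insulin pathway lists were centred on 0. Among 19 genes of leptin, IL-6 family and STAT3 signalling, 2 were higher and 3 lower without overlap, against 7.32% and 6.82% of all genes (median log2 change 0.00), and Socs3, a feedback inhibitor of leptin signalling, was at 3.9, 6.24 and 8.07 CPM in controls and 8.68, 8.7 and 7.78 CPM on HFHS (0.45, adjusted p = 0.674). For 21 genes of insulin and growth factor signalling, 1 was higher and 3 lower, against the same 7.32% and 6.82%. Without control female 3 there were 2 higher and 6 lower, when 14.2% and 12.6% of all genes were. With that library left out the leptin counts were 5 and 3. The 1 higher gene over all 6 libraries was Igfbp5, a binding protein of insulin-like growth factors, at 323, 408 and 362 CPM and 483, 467 and 541 CPM (0.45 ± 0.12, adjusted p = 0.295). Irs2, an adaptor of the insulin receptor, was lower at 135, 142 and 131 CPM and 111, 116 and 115 CPM (−0.25, adjusted p = 0.679).

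Of the genes in the metabolic lists 0 passed the test. Of 23 cholesterol synthesis genes, 3 were lower without overlap, against 6.82% of all genes, 22 had a negative log2 change and the median was −0.16. Srebf2, the transcription factor gene that drives the pathway, was at 243, 265 and 230 CPM in controls and 208, 225 and 205 CPM on HFHS (−0.21 ± 0.05, adjusted p = 0.201). Without control female 3, left out after its values were seen, 19 of 23 were lower without overlap, when 12.6% of all genes were. Leaving out a control can only keep or raise such a count. With HFHS female 2 as the single HFHS library, 5 of 23 were lower, when 22.8% of all genes were. Summed over the list, control female 3 had 1470 CPM, below the 1520 to 1600 CPM of the HFHS females, while the other controls had 1840 and 1880 CPM. Fatty acid oxidation held 4 members higher and 1 lower of 20, against 7.32% and 6.82% of all genes. Without control female 3, 10 were higher, when 14.2% of all genes were. With HFHS female 2 as the single HFHS library, 5 were higher and 3 lower, when 23.7% and 22.8% of all genes were. The carnitine transferase gene Cpt1a of this list was at 36.9, 39.6 and 45.4 CPM in controls and 48.3, 45.6 and 51.1 CPM on HFHS. Slc16a1, the transporter gene for lactate and ketone bodies, was at 53.5, 50.6 and 56 CPM in controls and 69.6, 64.2 and 81.5 CPM on HFHS (0.43 ± 0.10, adjusted p = 0.164). Of the 45 genes of the cytosolic ribosome 0 lay apart in either direction. Without control female 3, 7 of them lay above, when 14.2% of all genes did. Oxidative phosphorylation had 0 higher and 1 lower of 40, and with HFHS female 2 as the single HFHS library 15 higher, when 23.7% of all genes were.

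Single members of other lists were apart between the diets without passing. Nuclear speckle retention genes, which hold Neat1, had 3 higher and 1 lower of 17 without overlap. Blood-brain barrier transport genes, with Tfrc, had 1 higher and 2 lower of 14. Thyroid hormone response genes, with Dio2, had 2 and 2 of 11, and neuroendocrine releasing factors, with Npvf and Th, had 2 and 1 of 15. Of all genes, 7.32% lay above and 6.82% below. Neat1, a long non-coding RNA that builds nuclear paraspeckles, was at 127, 122 and 146 CPM in controls and 212, 177 and 237 CPM on HFHS (log2 change 0.66, adjusted p = 0.268). Tfrc, the transferrin receptor gene through which brain vessels take up iron, was at 77.4, 69.4 and 62.5 CPM and 108, 89.7 and 110 CPM (0.56, adjusted p = 0.362). Dio2, the enzyme gene that makes active thyroid hormone in astrocytes and tanycytes, was at 17.6, 20.9 and 18.6 CPM and 28.4, 28.2 and 35.6 CPM (0.69, adjusted p = 0.58). In each of these genes HFHS female 2 was the lowest HFHS library and still above all controls. Npvf, a peptide gene that restrains the reproductive axis, was at 8.67, 7.51 and 8.34 CPM and 12.1, 17.1 and 13.3 CPM (0.80, adjusted p = 0.629). Th, the rate-limiting enzyme gene of dopamine synthesis, was lower at 30.1, 33.9 and 29.6 CPM and 23.3, 29.5 and 21.4 CPM, with HFHS female 2 close to control female 3. Hypoxia response genes held 5 higher and 3 lower of 15 without overlap and extracellular matrix genes 4 and 1 of 24, against 7.32% and 6.82% of all genes.

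The male libraries of the strain allow the female response to be compared with that of males. Tested as a difference between the responses, 1 gene of 20053 passed, 0.00499% of those tested, and it was Serpina3n. Its male levels were 85.8, 121 and 105 CPM on control diet and 95.4, 90.2 and 115 CPM on HFHS, so the male groups overlapped. The response was 1.43 ± 0.21 log2 units larger in females (adjusted p = 0.00432), and the difference did not pass when NZO/HlLtJ libraries alone were fitted (adjusted p = 0.111, over a range from 6.84e-07 to 0.111 among 21 settings). C4b was at 261, 406 and 336 CPM in control males and 365, 357 and 361 CPM in HFHS males, and the difference of responses, 0.69 ± 0.18, did not pass (adjusted p = 0.833). The next genes by p were Sema5b (−0.74 ± 0.16, adjusted p = 0.369) and the phosphodiesterase gene Pde1c (0.92 ± 0.23, adjusted p = 0.833). A p that misses the threshold does not show that the responses were alike.

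For the lists, the values in the sexes can be set side by side. Reactive gliosis had a median log2 change of 0.57 in females and 0.11 in males, and complement 0.26 and 0.10. Heat shock chaperones had −0.27 and −0.35. In males Hspa1b passed the test with a log2 change of −2.96 ± 0.54 (adjusted p = 0.0408), from 42.1, 52.6 and 15.8 CPM to 4.45, 5.54 and 4.15 CPM. The female and male changes of Hspa1b did not differ by the test (0.82 ± 0.73, adjusted p = 0.908). Glucocorticoid-induced genes had a median of −0.31 in females and 0.06 in males, and Tsc22d3 a log2 change of −0.63 and −0.01, with an adjusted p for their difference of 0.862.

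**Figure D4:**
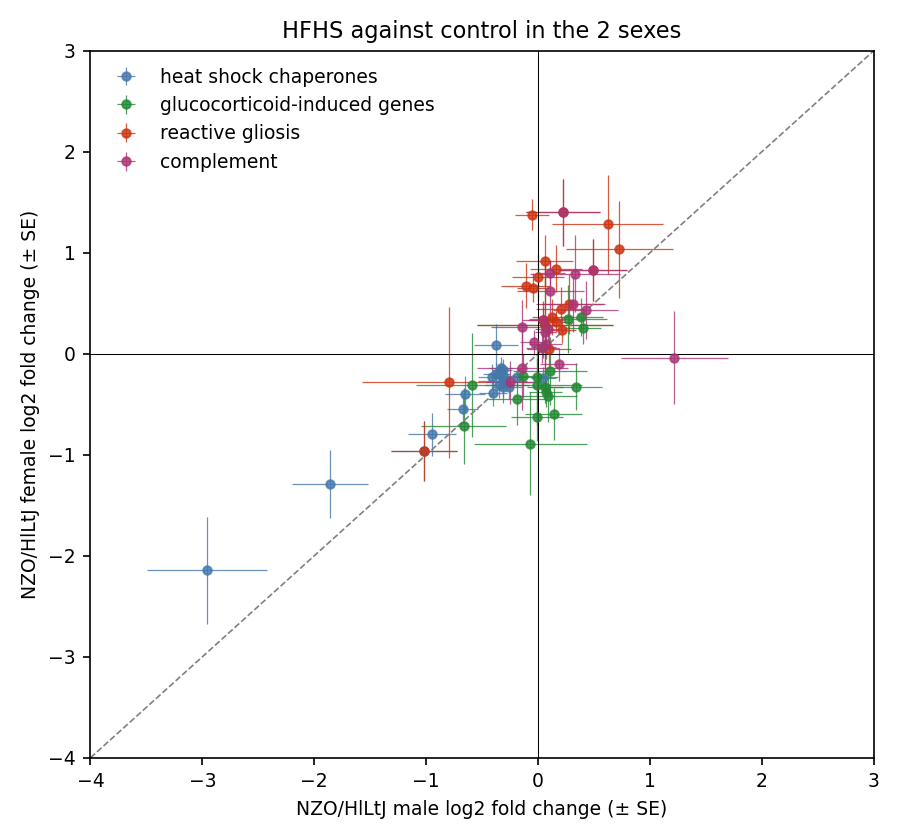
Log2 change on HFHS in NZO/HlLtJ females (vertical) against NZO/HlLtJ males (horizontal) for members of 4 gene lists, with bars of 1 SE and the line of equal change dashed. Hspa1b, the lowest point, lies at −2.14 in females and −2.96 in males, and Serpina3n lies at 1.38 in females and −0.06 in males.

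Females of the other strains were compared in the same way. Against C57BL/6J females, 0 genes passed the test of the difference, 0% of those tested, with 721 at an unadjusted p under 0.05 and 3 by DESeq2. Serpina3n came closest, at 38.3, 35.6 and 45.3 CPM in C57BL/6J controls and 34, 50 and 48.9 CPM on HFHS, with a difference of 1.21 ± 0.22 log2 units (adjusted p = 0.0909). Stom (0.69 ± 0.16, adjusted p = 0.72) and the cytochrome gene Cyp4f15 (0.81 ± 0.19, adjusted p = 0.72) followed. C57BL/6J females had 0 calls for diet of their own and 763 genes at an unadjusted p under 0.05.

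Against CAST/EiJ females, 196 genes had a higher response in NZO/HlLtJ and 150 a lower one, 0.977% and 0.748% of those tested. This count rested on single libraries. It was 22 without CAST/EiJ control female 1, in which pituitary transcripts summed to 2440 CPM, and 12 without NZO/HlLtJ control female 2. It was 2873 without CAST/EiJ control female 2, and 6 were left when female libraries alone were fitted. CAST/EiJ females had 372 higher and 512 lower calls for diet in the fit with all libraries. Those calls include the pituitary-rich control female 1 and were not counted without it. The differences take in the CAST/EiJ change as well as the NZO/HlLtJ one. Serpina3n was at 97.4, 69.4 and 68.6 CPM in CAST/EiJ controls and 56.7, 60 and 64.9 CPM on HFHS, which were all below the controls. The difference was 1.75 ± 0.22 log2 units (adjusted p = 9.47e-05). Stom (1.09 ± 0.16) and C4b (1.08 ± 0.18) differed too (adjusted p = 0.000502 and 0.00672).

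Linker histone genes were among those that differed from CAST/EiJ. H1f0 was at 68.6, 71.6 and 70.2 CPM in NZO/HlLtJ controls and 85.5, 93.4 and 91.2 CPM on HFHS, while in CAST/EiJ it was at 87.7, 69.6 and 81.9 CPM and 57.8, 62.3 and 56.5 CPM. The groups were apart in both strains and in opposite directions (difference 0.80 ± 0.10, adjusted p = 0.000196). Hist1h1c differed by 1.46 ± 0.23 (adjusted p = 0.003), with NZO/HlLtJ levels of 11.7, 14.8 and 14.3 CPM and 20.9, 25.6 and 21.3 CPM. S100a6, a calcium-binding protein gene of glia, was at 6.62, 7 and 7.78 CPM and 10.1, 11.2 and 10.8 CPM in NZO/HlLtJ and differed by 1.53 ± 0.21 (adjusted p = 0.000221). Retsat, a retinol saturase gene (0.82 ± 0.14, adjusted p = 0.00785), and the histone methyltransferase gene Suv420h2 (−0.77 ± 0.14, adjusted p = 0.00928) completed the set. These last 2 did not pass when female libraries alone were fitted (adjusted p = 0.137 and 0.106), and the other 6 named genes passed in all 21 settings.

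**Figure D5:**
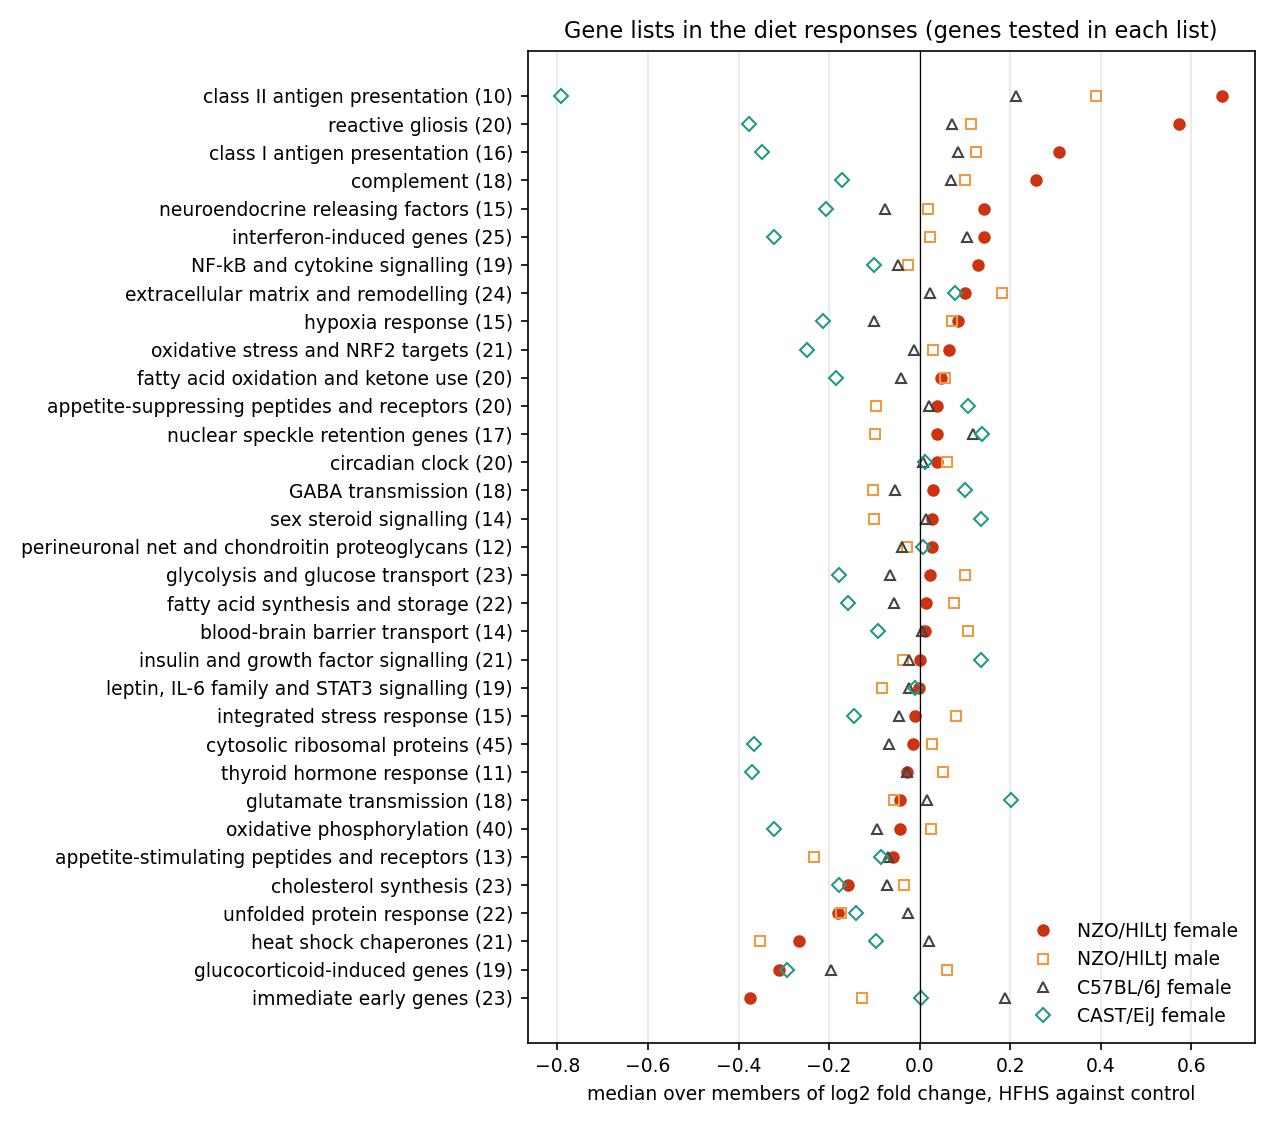
Median over list members of the log2 change on HFHS for each gene list (number of genes tested in brackets) in NZO/HlLtJ females (filled circles), NZO/HlLtJ males, C57BL/6J females and CAST/EiJ females (open symbols). In NZO/HlLtJ females reactive gliosis is at 0.57 and heat shock chaperones at −0.27, where C57BL/6J females are at 0.07 and 0.02.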

How the data were processed

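Poly(A) RNA of bulk hypothalamus was sequenced, with 3 libraries in each of 12 groups. The authors deposited a gene table of expected counts, recognised as such from values that are not whole, and a table of log2 values after variance stabilization (VST). The submitters' processing notes name DESeq2 and GRCm38. No aligner, counting tool or strand setting is named by the sources used here. Of the expected counts 21.4% were not whole (tolerance 1e-06), although the design had assumed counts, so they were rounded. All 36 libraries were fitted with edgeR 4.0.16 in R 4.3.3 (TMM, filterByExpr, quasi-likelihood F-test on 12 group means, 24 residual degrees of freedom). P-values were adjusted by Benjamini-Hochberg over 20053 genes, and a gene was called at adjusted p under 0.05. The fit was tested on simulated data. Log2 changes are given ± SE, and CPM uses TMM-scaled totals. Groups were said not to overlap when all 3 HFHS libraries lay above, or all below, all 3 controls. The libraries left out of such counts were chosen after the data were seen. Leaving a library out can only keep or raise a count.

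The rule for naming genes asked for a proper symbol and 1 CPM or more on average in the 6 libraries, and took those with the smallest p in each direction or comparison, plus up to 5 members of a list with the smallest p. Other list members (such as Fos, Egr1, Fkbp5, Pomc, Vim and Socs3), single cell type markers and 2900052N01Rik were chosen after their values were seen. The comparison, gene lists and tests were chosen with earlier results of these data known, and the hindbrain, cerebellar and Y-linked lists after these libraries were seen. Alternatives were median-ratio size factors, other filters, fits on fewer libraries, a robust spread, 2 surrogate variables (sva 3.50.0), DESeq2 1.42.0, limma 3.58.1 on the VST values, and libraries left out. Promoter windows came from RefSeq (GRCm38.p6).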

Additional observations from a re-analysis of the deposited data

Results flagged for a closer look

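Diet responses that differed between groups by the test of the difference are listed with their log2 values. For Serpina3n the response in NZO/HlLtJ females exceeded that in males by 1.43. Against CAST/EiJ females the NZO/HlLtJ female response was higher by 1.75 for Serpina3n, 0.80 for H1f0, 1.53 for S100a6, 1.09 for Stom, 1.46 for Hist1h1c, 1.08 for C4b and 0.82 for Retsat. For Suv420h2 the difference was −0.77. No outlier test was run within groups of 3 libraries.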

How the results depend on the processing

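No paired analysis was possible because the labels give no replicate number that groups share. The diet response in NZO/HlLtJ females, 4 calls, became 52 with NZO/HlLtJ libraries only, 15 with the 6 compared libraries only, 1 with female libraries only, 25 with 2 surrogate variables, 21 without the pituitary-rich CAST/EiJ library and 45 by DESeq2. The cause was not tested. Leaving out 1 library gave 2 to 13 calls, with 2 without control female 2, 13 without HFHS female 2 and 9 without control female 3. Chosen after the data were seen, HFHS female 2 as the single HFHS library, assumed to vary like the other groups, gave 1, and leaving out control female 2 with HFHS female 3 gave 1. Of the 4 calls, Serpina3n was the one that passed in each setting. The difference from males, 1 call, became 0 with NZO/HlLtJ libraries only, 4 by DESeq2 and 1 to 2 with 1 library left out. For the difference from C57BL/6J, 0 calls became 3 with female libraries only, 1 with 2 surrogate variables, 1 without the pituitary-rich library, 3 by DESeq2, 1 with limma on VST values and 0 to 1 with 1 library left out. From CAST/EiJ, 346 calls became 6, 180, 22 and 1012 with female libraries only, surrogate variables, without the pituitary-rich library and by DESeq2, and 12 to 2873 with 1 library left out. No result named changed sign among those that passed. Fits without the other strains cannot give the differences from them. Gliosis kept a median log2 change of 0.25 to 0.72 and heat shock chaperones −0.33 to −0.23 over 19 settings. Whether depth limits lists of low level, such as class II, was not tested.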
